A study of Mus musculus with 21 samples.

Results

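Insulin and growth factor signalling is represented here by 7 genes, Pik3r1, Igfbp1, Errfi1, Irs1, Irs2, Insr and Ptpn1, at which glucocorticoid receptor binding was examined in mouse liver. Peaks from the 18 receptor libraries that overlapped were merged into 7398 sites, and a site was kept when the nearest protein-coding gene, measured from the site's centre to the gene's span within 50 kb, was among the 7. This gave 17 sites, which lay at 6 of the 7 genes: 6 at Pik3r1, 4 at Errfi1, 3 at Irs1, 2 at Igfbp1 and 1 each at Irs2 and Ptpn1. Insr had 0. Nearest distance was the only link between a site and a gene, and RNA levels were not analysed here.

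Chromatin was taken from livers of C57BL/6J mice, whose genotype the labels give only by strain, and immunoprecipitated with the receptor antibody H300. Mice were kept at 21% oxygen (normoxia) or in a chamber at 7% oxygen for 6 h or 24 h, then injected intraperitoneally with the synthetic glucocorticoid dexamethasone (DEX, 10 mg/kg) or with phosphate-buffered saline (PBS), and sampled 2 h later, the hypoxic mice having gone back to 7% oxygen. The 6 groups were therefore normoxia, 6 h and 24 h of hypoxia, each with DEX and with PBS, at 3 libraries a group, named as biological replicates in the series' design. The labels name no removal of the adrenal glands, so PBS mice may carry glucocorticoid of their own. In whole liver, a change in the number of cells with a bound receptor and a change in binding per cell cannot be told apart.

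DEX libraries held between 5772670 and 13181686 tags, and PBS libraries between 8667179 and 43645787. Values at a site are the authors' normalized tag counts, which are tags per 10000000 of a library. The authors' caller asked for 50 tags whatever the depth, so the smallest peak it could call ranged from 11.5 normalized tags where depth was greatest to 86.6 where it was least. Normoxia PBS replicate 1 stood apart from the other 17 libraries: it was the deepest, its peaks were 280 bp wide against 178 to 196 bp, and up to 2 tags per base were counted in it against 1 elsewhere. The other 8 PBS libraries held 78 to 751 peaks and this one 3915. For the 17 sites, the main counts and DEX changes that use it are given with and without it. Values for other pathway genes are given with it unless stated. Of the tissue's markers, 7 of 10 hepatocyte genes had a receptor site, against 1 of 8 Kupffer cell and leukocyte genes, 2 of 6 endothelial genes and 1 of 8 stellate cell and cholangiocyte genes, counts that were the same without this library. Of all 21883 protein-coding genes 4845 had one, and 2320 without this library.

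Insulin activates its receptor, encoded by Insr, a tyrosine kinase that phosphorylates the adaptors encoded by Irs1 and Irs2. These recruit phosphoinositide 3-kinase through its regulatory subunit p85α, the product of Pik3r1, and the lipid this kinase makes activates AKT, which in liver restrains glucose production. Ptpn1 encodes the phosphatase PTP1B, which removes phosphate from the insulin receptor, Errfi1 encodes MIG6, an inhibitor of the epidermal growth factor receptor kinases, and Igfbp1 encodes a liver-secreted protein that binds insulin-like growth factors. Glucocorticoids oppose insulin's action in liver, and several genes of this pathway are known as glucocorticoid targets.

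**Figure D1:**
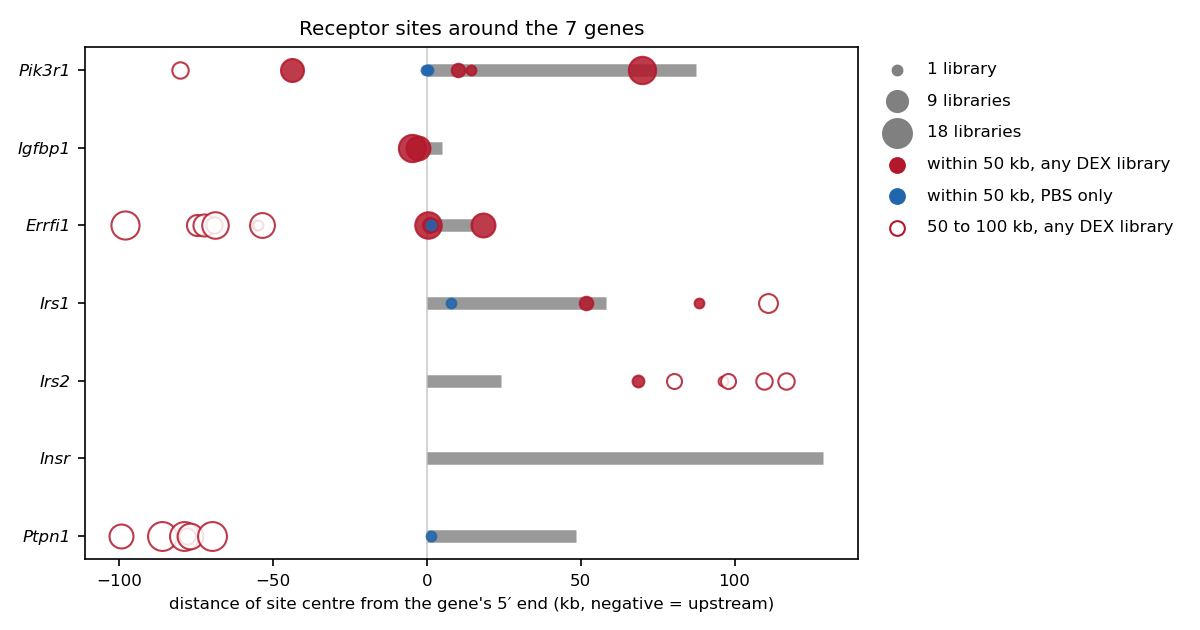
Receptor sites at the 7 genes by the distance of the site's centre from the gene's 5′ end, in kb with negative values upstream; grey bars are gene spans, marker area grows with the number of libraries that called the site, and open markers lie 50 to 100 kb from the span. Sites called in all 9 DEX libraries within 50 kb occur at Pik3r1, Igfbp1 and Errfi1, and Insr has no marker.

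Among the 17, 4 sites reached into a 300 bp window that runs from 250 bases before to 50 bases after an annotated start. Sequence is given for the 3 with the longest share of the site inside the window, from RefSeq on GRCm38.p6, the assembly behind mm10, with CG dinucleotides in capitals because these stretches are dense in them. They are read 5′ to 3′ on the gene's strand. The Errfi1 stretch lies before the gene's inner start and belongs to a site found in DEX livers, while the Pik3r1 and Ptpn1 stretches belong to sites found in normoxia PBS replicate 1 alone.
Errfi1, before the inner start, chr4:150854820-150854959, plus strand: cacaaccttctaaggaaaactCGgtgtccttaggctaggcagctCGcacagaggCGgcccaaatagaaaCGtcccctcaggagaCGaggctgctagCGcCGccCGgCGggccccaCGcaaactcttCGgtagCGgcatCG
Pik3r1, before the outer start, chr13:101768280-101768467, minus strand: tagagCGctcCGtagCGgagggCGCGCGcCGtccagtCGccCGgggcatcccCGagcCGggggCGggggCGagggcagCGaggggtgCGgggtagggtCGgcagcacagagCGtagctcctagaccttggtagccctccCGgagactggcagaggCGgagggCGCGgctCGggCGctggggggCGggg
Ptpn1, before the inner start, chr2:167932077-167932264, plus strand: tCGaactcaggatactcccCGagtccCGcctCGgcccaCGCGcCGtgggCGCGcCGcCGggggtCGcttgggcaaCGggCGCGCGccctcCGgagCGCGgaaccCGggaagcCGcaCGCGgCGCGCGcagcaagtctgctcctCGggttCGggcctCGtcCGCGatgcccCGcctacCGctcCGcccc
CG dinucleotides numbered 9.29 per 100 bases in the Errfi1 stretch, 12.8 in the Pik3r1 stretch and 18.1 in the Ptpn1 stretch. Over the 250 bases upstream of 21262 starts the median was 4, with quartiles of 1.2 and 7.6, so the 3 stretches lay above the upper quartile. The receptor's palindromic element, searched on both strands as GNACA, 3 bases of any kind and TGTNC, had 0 matches in the 8 windows of 6 of the genes (all but Insr) and was present in 0.442% of all 21262. Its shorter form TGTTCT, which can overlap the palindrome, also had 0 matches, against 16.2% of all windows. The strongest sites of Pik3r1, Igfbp1 and Errfi1 lay outside these windows, and their sequence was not analysed here.

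Igfbp1 carried both of its sites upstream of the gene, and both were called in all 9 DEX libraries. The stronger, centred 4.82 kb before the start (chr11:7192828-7193108, mm10), held 262, 260 and 293 normalized tags in the 3 normoxia DEX libraries. It held 246, 291 and 227 after 6 h of hypoxia with DEX and 128, 206 and 278 after 24 h. In PBS livers 7 of 9 libraries called it, at 34.4, 66.9 and 75.1 tags in normoxia, 42.8, 181 and 86.2 after 6 h, and 87.4 in a single library after 24 h. The groups overlapped, since the second 6 h PBS library lay above the first 24 h DEX library. The site 3.04 kb before the start (chr11:7194629-7194869) was weaker, at 113 ± 31.9 tags (SD, n = 9 DEX libraries, range 63.2 to 162). PBS libraries called it 3 times, at 36.4 tags in normoxia and at 100 and 39.7 after 6 h, and 0 of 3 libraries called it after 24 h. On the authors' ratio of peak to input tags, the stronger site stood 108-fold to 667-fold over input in DEX libraries.

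Insr, the receptor gene itself, had no receptor site within 100 kb of its span (chr8:3150922-3279649). The site nearest to it was assigned to Arhgef18, lay 136797 bp away and was called in 1 DEX library at 46.3 tags. At this depth a site below the calling minimum could not be seen.

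The adaptor genes Irs1 and Irs2 had weak sites called in few libraries. The Irs1 site inside the gene, 51.8 kb from its start (chr1:82239506-82239711), held 47.8 tags in the first normoxia DEX library, 61.0 and 55.4 in 24 h DEX replicates 2 and 3, and was called in 0 of 9 PBS libraries. A site 30.2 kb beyond the end of Irs1 was called in the first normoxia DEX library alone (52.3 tags), and the remaining site, 7.87 kb into the gene, in normoxia PBS replicate 1 alone (12.8 tags). The single Irs2 site lay 44.5 kb beyond the gene's end (chr8:10940012-10940299), with 78.9 tags in the first normoxia DEX library and 12.1 in normoxia PBS replicate 1. All values at Irs1 and Irs2 were below 86.6, the smallest peak the shallowest library could call. In the other 17 libraries that minimum was 11.5 to 57.7 tags.

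Pik3r1 held the strongest site among the 17. It lay inside the gene, 70.1 kb from the outer start and 5.53 kb before the inner start from which a shorter transcript is annotated (chr13:101698021-101698301). The 3 normoxia DEX libraries held 395, 386 and 380 tags, the 6 h DEX libraries 416, 561 and 349, and the 24 h DEX libraries 284, 466 and 507. PBS libraries held 16.3 and 43.6 tags in normoxia, 50.5, 257 and 106 after 6 h, and 72.5 and 50.3 after 24 h, while 1 normoxia and 1 24 h library gave no peak. The DEX libraries all lay above the PBS libraries here, and how many of all sites separate in this way was not counted. At a mean of 416 ± 84.0 tags (SD, n = 9) it ranked 66 of the 935 sites called in all 9 DEX libraries.

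A second Pik3r1 site, 44.0 kb upstream of the outer start (chr13:101812040-101812347), was called in all 9 DEX libraries as well. It held 102, 68.7 and 91.3 tags in normoxia with DEX, 108, 132 and 102 after 6 h and 75.2, 98.3 and 119 after 24 h. PBS gave 2 calls, at 15.4 tags in normoxia PBS replicate 1 and 91.2 in the second 6 h library. The remaining 4 Pik3r1 sites were sparse. The site 9.97 kb into the gene held 72.8 and 54.4 tags in 2 normoxia DEX libraries and 44.3 in 1 24 h DEX library, the site 14.5 kb into the gene held 46.4 tags in 1 normoxia DEX library, and the pair around the outer start, 203 bp before and 270 bp after it, were called in normoxia PBS replicate 1 alone at 12.4 and 11.9 tags.

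Among the inhibitors, Errfi1 had 2 sites called in all 9 DEX libraries. The site 309 bp into the gene (chr4:150853952-150854258) held 143, 171 and 151 tags in normoxia with DEX, 150, 185 and 117 after 6 h and 112, 148 and 150 after 24 h. With PBS it held 22.7, 64.6 and 48.5 tags in normoxia, 114 and 68.9 after 6 h and 87.4 after 24 h, in 6 of 9 libraries. The coefficient of variation over the 9 DEX libraries was 15.6%, and only 2.35% of the 935 sites varied less, the median being 25.4%. The lowest DEX library, at 112 tags, lay just under the highest PBS library, at 114. The other site, 3.03 kb beyond the 3′ end of the gene (chr4:150871771-150872074), held 141, 93.5 and 88.2 tags in normoxia with DEX, 156, 175 and 113 after 6 h and 76.9, 91.5 and 83.8 after 24 h. Its 3 PBS calls were at 14.4 tags in normoxia and 65.3 and 42.2 after 6 h, all below the DEX range, a separation that was not counted over all sites.

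The Errfi1 site before the inner start, whose sequence is printed above (chr4:150854732-150854959), was called in fewer libraries. It was called in all 3 normoxia DEX libraries, at 53.9, 52.5 and 61.9 tags, in 0 of 3 libraries after 6 h with DEX, in 1 of 3 after 24 h, at 59.3 tags, and in 0 of 9 PBS libraries. Hypoxia against normoxia within DEX gave p = 0.0476 by Fisher's exact test (6 against 3 libraries, two-sided). Benjamini-Hochberg adjustment over 2938 sites made it 0.511, so the difference did not pass 0.05. Of those 2938 sites, 260 had an unadjusted p under 0.05. All 4 values of this Errfi1 site lay below the calling minimum of 86.6 tags of the second 6 h DEX library. They lay above that of the other two 6 h DEX libraries, 43.7 and 47.6 tags, and above that of the first 24 h DEX library, 42.7. The second 24 h DEX library, at 56.5, could have called 2 of them. The 24 h library that called the site, replicate 3, held 2287 peaks, and the other hypoxic DEX libraries 1235 to 2168. The pattern was not particular to this site. A site 56.2 kb beyond the end of Irs2, outside the 50 kb limit, had the same number of calls in every group. The fourth Errfi1 site, 111 bp after the inner start, was found in normoxia PBS replicate 1 alone, at 24.5 tags.

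Ptpn1, the phosphatase gene, had 1 site within 50 kb, the promoter stretch printed above, called in normoxia PBS replicate 1 alone at 11.5 tags. That library held 5 of the 7 sites called in a single library. The other 2 were called in normoxia DEX libraries. Over all 7398 sites, 4369 (59.1%) were called in a single library. Without normoxia PBS replicate 1, 12 of the 17 sites remained, and they lay at Pik3r1, Igfbp1, Errfi1, Irs1 and Irs2.

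**Figure D2:**
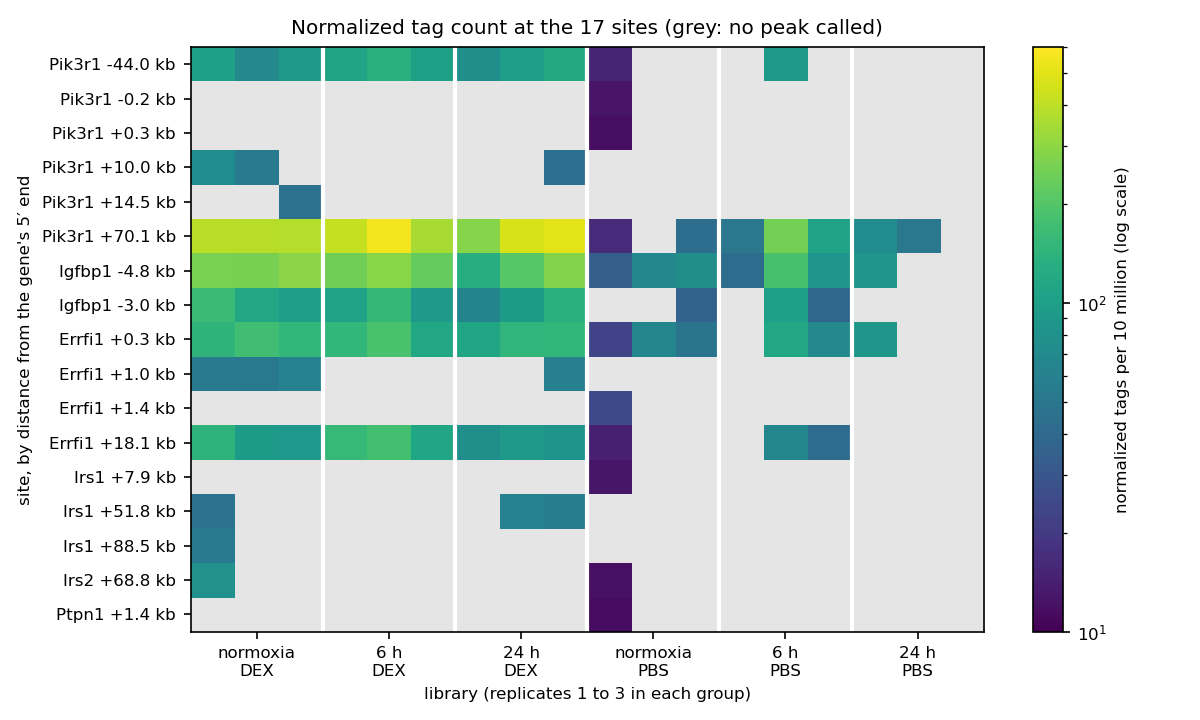
Normalized tags (log colour scale) at the 17 sites, in rows named by gene and distance from the gene's 5′ end, for the 18 libraries in columns grouped by oxygen and treatment; grey means no peak. In all, 6 rows are filled across all 9 DEX libraries, and 5 rows hold a value only in the first normoxia PBS library.

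The next question was whether DEX changed how often each site was called. Of the 17 sites, 9 were called in at least 3 of 18 libraries and could be tested with the exact form of the Cochran-Mantel-Haenszel test, with oxygen conditions as strata. An adjusted p of 0.05 was passed by 3 of them, all called more often with DEX: the Pik3r1 site 44.0 kb upstream (9 of 9 against 2 of 9, adjusted p = 0.0112), the weaker Igfbp1 site (9 against 3, 0.0216) and the Errfi1 site beyond the gene (9 against 3, 0.0216). Over all sites tested, 55.3% were called more often with DEX and 0.039% less often, so 3 of 9 is no larger a share than the background. The lead sites of Pik3r1 and Igfbp1 and the Errfi1 site 309 bp into the gene were called in 7, 7 and 6 PBS libraries and did not pass (exact test, adjusted p = 0.546, 0.441 and 0.230). Against 1 threshold of 86.6 tags in every library, 6 sites could be tested and all 6 passed, these 3 included, with a background of 62.5%. Without normoxia PBS replicate 1 the count was again 3 of 9. With the replicate number as a block it was 1 of 9, the Pik3r1 site 44.0 kb upstream (exact test, adjusted p = 0.0435), with a background of 35.9%.

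Tag counts could be compared between DEX and PBS at 5 of the 17 sites, those called in at least 12 of 18 libraries, with limma on log2 tags and with a library that lacked a peak set to the smallest value it could call. The 5 had to be called in at least 3 PBS libraries, so they leave out the sites most restricted to DEX. All 5 rose with DEX on the scale of normalized tags, but 4 of them turned sign when libraries were centred on their medians. Over the 354 sites tested 98% rose and 0.847% fell, so the direction is that of nearly every site, and the median change was 1.72. The change at the Pik3r1 lead site was 2.76 ± 0.31 (log2, SE, adjusted p = 5.1e-17, limma), or 6.76-fold with a 95% interval of 4.46 to 10.3, and 94.1% of sites changed less. The stronger Igfbp1 site changed by 1.85 ± 0.31 (adjusted p = 6.2e-09), close to the median. In this fit limma drew the spread from all sites together, so the SE was nearly the same at each site and is not a site's own spread. The sites share the same 18 libraries and their differences in yield, so these p values may be too small.

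The other 3 lay under the median, at 1.40 ± 0.31 for the weaker Igfbp1 site, 1.45 ± 0.31 for the Errfi1 site 309 bp into the gene and 1.45 ± 0.30 for the Errfi1 site beyond it. With each library centred on its own median, 17.5% of sites were called higher and 40.1% lower with DEX. On that scale the Pik3r1 lead site stayed higher, by 0.83 (adjusted p = 5.24e-07, limma), the stronger Igfbp1 site was at -0.07 and did not pass (0.584), and the weaker Igfbp1 site and the 2 Errfi1 sites took values of -0.53, -0.47 and -0.47. At those 3 sites 6, 3 and 6 of the 9 PBS values are calling minimums put in for a missing peak. At the Pik3r1 lead site 2 of 9 are. The true value may be lower than the minimum, so at a site these minimums can make the change with DEX too low. In 3 of the 9 PBS libraries most of the 354 sites are such minimums. This can raise the medians of those libraries and make centred changes with DEX too high. The 2 effects are opposed and their sizes were not tested. The negative values therefore do not show a fall, and the 0.83 of the Pik3r1 lead site carries the same limit. Without normoxia PBS replicate 1 the uncentred changes were 2.58 at the Pik3r1 lead site, 1.74 and 1.18 at the Igfbp1 sites and 1.31 at the first Errfi1 site, all 4 past the threshold, and the Errfi1 site beyond the gene fell under 12 calls.

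**Figure D3:**
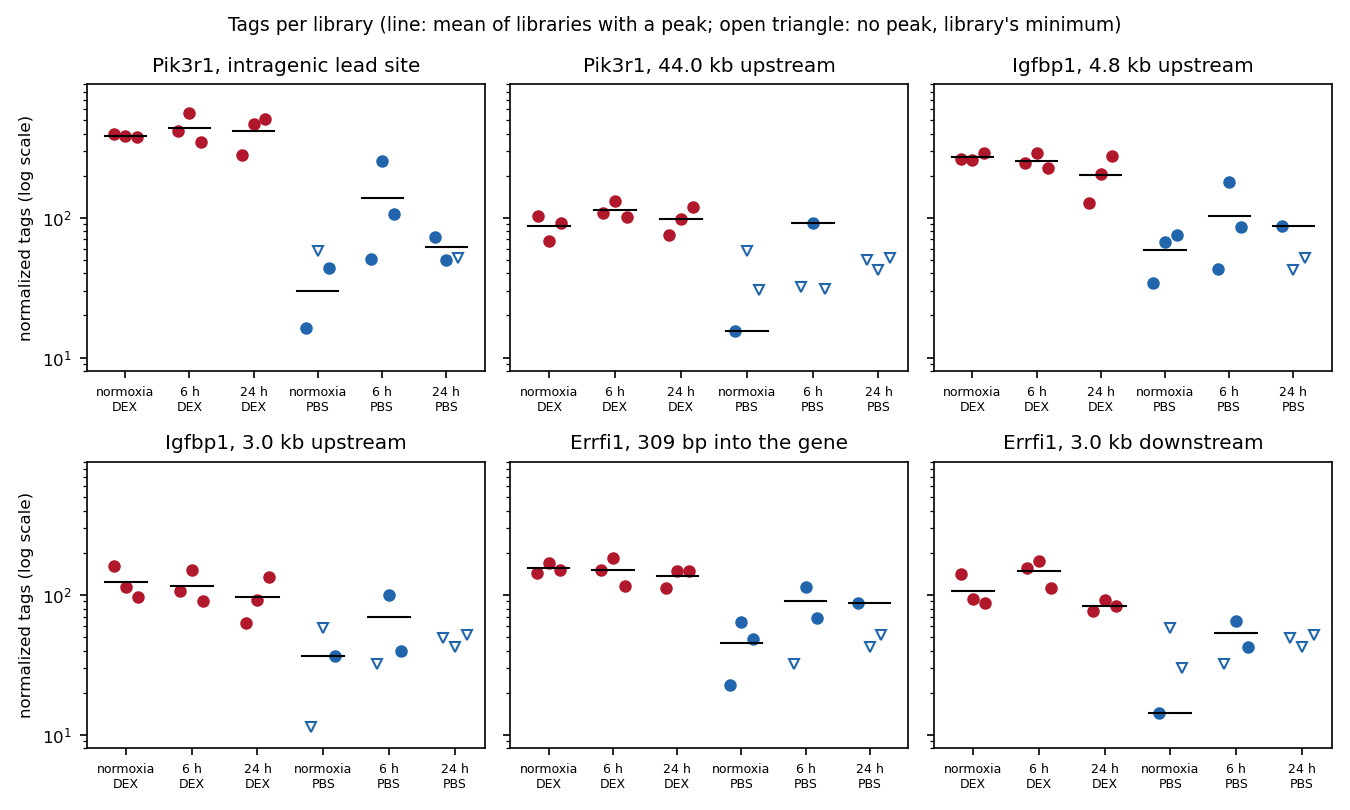
Normalized tags per library (log axis) at the 6 sites called in all 9 DEX libraries, by group; filled points are called peaks, open triangles mark the smallest callable value of a library without a peak, and lines are means of libraries with a peak. The Pik3r1 lead site shows DEX points from 284 to 561 above all PBS points, while the highest PBS point in each panel is the second 6 h library.

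The second 6 h PBS library held the highest PBS value at each of these 6 sites. In this library 1.23% of tags fell in peaks, against 0.150% to 0.684% in the other 8 PBS libraries. The first 24 h DEX library held the lowest DEX value at 5 of the 6, all but the Pik3r1 site 44.0 kb upstream, and its share of tags in peaks, 1.38%, was the lowest of the 9 DEX libraries (the highest was 3.68%). The part of these shares in the site values was not tested.

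DEX changes were then taken within each oxygen condition. At the Pik3r1 lead site the log2 change was 3.49 ± 0.53 with normoxia, 1.96 ± 0.53 at 6 h and 2.82 ± 0.53 at 24 h, and each passed the threshold (limma, adjusted p = 1.6e-09, 0.00202 and 2.8e-06). The stronger Igfbp1 site changed by 2.28, 1.53 and 1.75 in the same order and the first Errfi1 site by 1.90, 1.23 and 1.23, again each past the threshold. The weaker Igfbp1 site passed in normoxia (2.08) and after 6 h (1.18), and so did the Errfi1 site beyond the gene (1.84 and 1.71). After 24 h neither passed (limma, adjusted p = 0.0864 and 0.139). No PBS library called either site then, so the values there, 0.95 and 0.81, are set by the calling minimums of the 3 PBS libraries. The 0.95 of the weaker Igfbp1 site passed once normoxia PBS replicate 1 was left out (limma, adjusted p = 0.0445). It still rested on those minimums, and 90.1% of 284 sites were then called higher. Without normoxia PBS replicate 1 the normoxia changes were 2.95 at the Pik3r1 lead site, 1.94 and 1.41 at the Igfbp1 sites and 1.47 at the first Errfi1 site, all 4 past the threshold (limma, adjusted p = 1.78e-05, 0.0013, 0.0101 and 0.0074), with 86.3% of 284 sites called higher. Over the 354 sites 96.3% were called higher with normoxia, 74.3% at 6 h and 78.2% at 24 h, and 0.282%, 0.282% and 0.847% lower.

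The difference between these changes was tested directly as hypoxia minus normoxia, and 0 of the 5 sites passed, against 0.282% of sites called higher and 0 called lower. At an unadjusted p under 0.05, 22 of the 354 sites passed and 0 of the 5 did. The Pik3r1 lead site gave -1.10 ± 0.65 (limma, adjusted p = 0.436, 95% interval -2.37 to 0.18), where the median of all sites was -0.78. Without normoxia PBS replicate 1 it gave -0.56 (adjusted p = 0.99). The other 4 lay between -1.02 and -0.58 with that library and, for the 3 that could still be tested, between -0.35 and -0.24 without it.

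**Figure D4:**
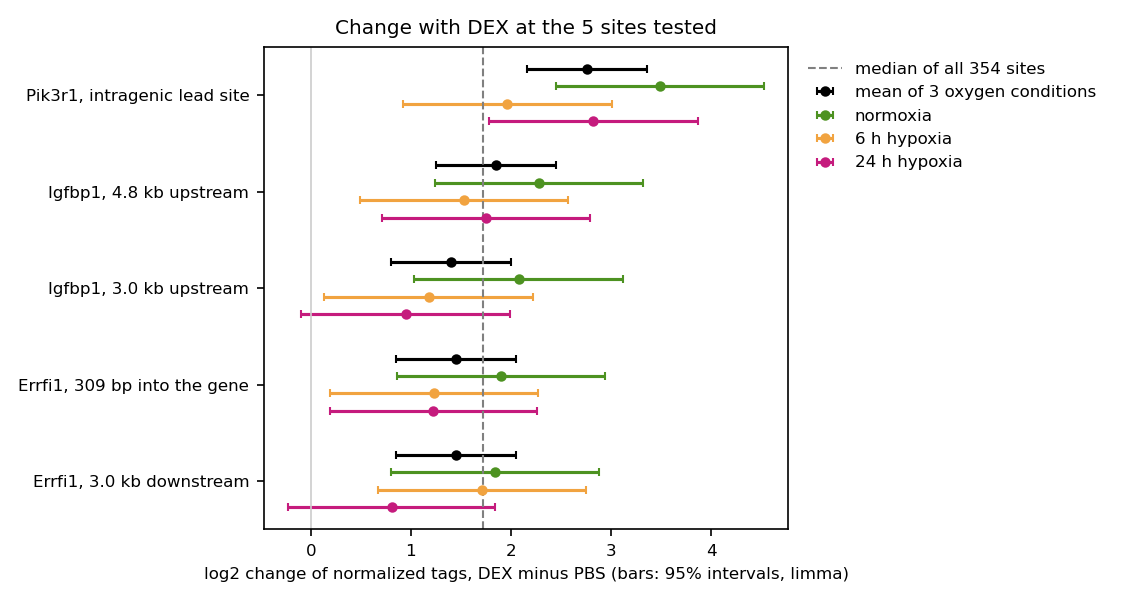
Change in normalized tags with DEX (log2, x axis) at the 5 sites tested, for the mean over oxygen conditions and for each condition, with 95% intervals from limma; the dashed line is the median of all 354 sites, 1.72. The interval of the Pik3r1 lead site for the mean lies above that line, and the intervals of the other 4 include it.

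Hypoxia was compared with normoxia among the 9 DEX libraries at the 6 sites with complete values, each library being centred on its median over all 935 such sites. Centring removes any change shared by most sites, so a value near 0 means a change like that of the library medians. Sites not called in all 9 DEX libraries, such as the Errfi1 site before the inner start, could not enter this comparison. None of the 6 passed the adjusted threshold (limma), against 3.1% of sites called higher and 2.03% called lower. At an unadjusted p under 0.05, 162 of the 935 sites passed, and both Pik3r1 sites were among them. The Pik3r1 site 44.0 kb upstream was 0.42 ± 0.15 higher in hypoxia (log2, SE, adjusted p = 0.156), with 0.41 after 6 h and 0.44 after 24 h, and the Pik3r1 lead site was 0.27 ± 0.11 higher (0.235), with 0.18 after 6 h and 0.36 after 24 h. As a ratio to its library's median, the lead site held 2.53 to 2.74 in normoxia, 2.77 to 3.06 after 6 h and 3.16 to 3.56 after 24 h, ranges that do not overlap, although the adjusted test across sites was not passed. The share of the 935 sites with such separate ranges was not counted, and 85.6% of them had a lower change with hypoxia than the lead site. The upstream site held 0.458 to 0.659, 0.650 to 0.891 and 0.702 to 0.838, with overlap between neighbours.

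Igfbp1 sites were near 0 on this centred scale, at -0.14 ± 0.15 for the stronger (95% interval -0.46 to 0.18) and -0.10 ± 0.15 for the weaker (-0.43 to 0.23). Uncentred, the stronger averaged 272 ± 18.9 tags in normoxia, 254 ± 33.1 after 6 h and 204 ± 75.1 after 24 h with DEX (SD, n = 3). The Pik3r1 lead site averaged 387, 442 and 419 in the same order. On the centred scale the Errfi1 site 309 bp into the gene was at 0.02 ± 0.13 (-0.25 to 0.30). The Errfi1 site beyond the gene was at 0.48 ± 0.19 after 6 h (limma, adjusted p = 0.209) and near 0 after 24 h, at -0.04 ± 0.19 (95% interval -0.45 to 0.37). The difference of 24 h from 6 h was -0.53 ± 0.19 (limma, adjusted p = 0.191), which did not pass. Over the 935 sites 1.71% were called higher and 0.856% lower at 6 h, 2.14% and 2.03% at 24 h, and 0.107% and 1.28% for 24 h against 6 h.

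How often a site was called did not differ past the threshold either. With DEX, 0 of 9 sites passed Fisher's exact test of hypoxia against normoxia, with a background of 0 of 2938 sites, 260 of them under an unadjusted p of 0.05. Of the 9 sites, 6 were called in all 9 DEX libraries and so could not have passed. With PBS, 0 of 6 sites passed, with 0 of 632 in the background and 3 under an unadjusted 0.05. The smallest p this test can give for 6 against 3 libraries is 0.0119, so it had little room to pass an adjustment. In PBS livers the stronger Igfbp1 site was called in 3 of 3 normoxia and 4 of 6 hypoxia libraries and the first Errfi1 site in 3 of 3 and 3 of 6, while the Pik3r1 lead site was called in 2 of 3 and 5 of 6.

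**Figure D5:**
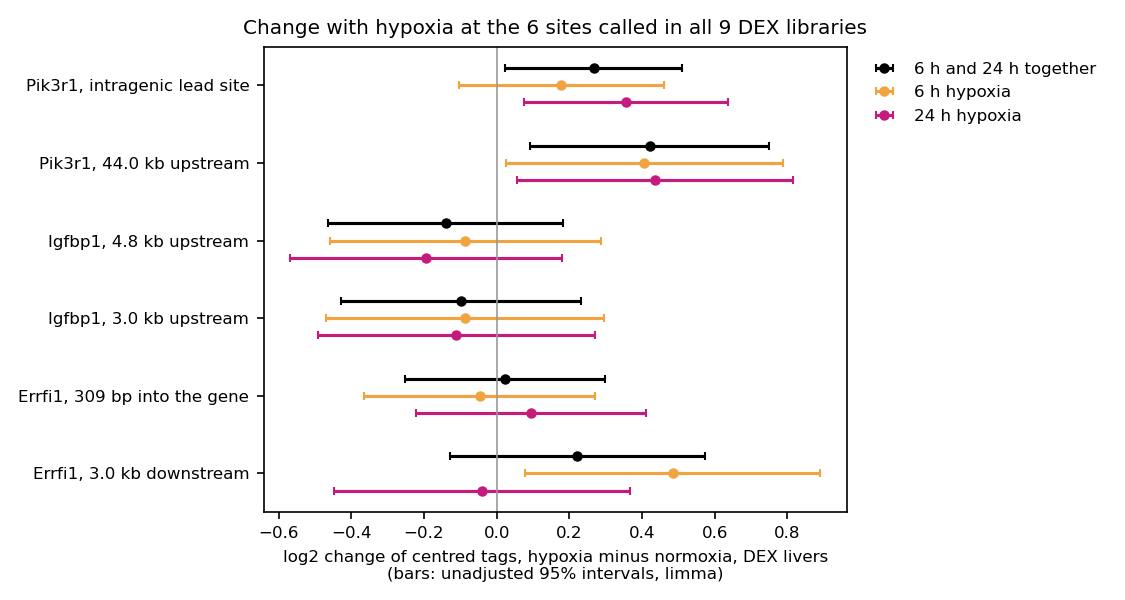
Change in library-centred tags with hypoxia among DEX livers (log2, x axis) at the 6 sites called in all 9 DEX libraries, for both times together and for each, with unadjusted 95% intervals from limma. Both Pik3r1 sites lie to the right of 0 and both Igfbp1 sites to the left with intervals that include 0.

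Across the 9 DEX libraries the 2 Pik3r1 sites varied together after centring (Pearson r = 0.717, a description over 9 libraries in 3 oxygen conditions), whereas the 2 Igfbp1 sites gave r = 0.289 and the 2 Errfi1 sites r = -0.169. Of the 934 other complete sites, those that tracked the Pik3r1 lead site most closely were nearest to Zbtb16 (r = 0.968) and Fem1c (0.964). For the stronger Igfbp1 site these were Slc2a6 (0.949) and Spred1 (0.921), and for the first Errfi1 site Pitpnm2 (0.889) and Hectd4 (0.862). All of these values share the same 9 libraries and were the highest of 934.

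Just inside the 50 kb limit lay the Irs2 site at 44.5 kb and the Pik3r1 site at 44.0 kb. Another 21 sites had one of the 7 genes as nearest but lay 50 to 100 kb away, 8 at Errfi1, 6 at Ptpn1, 5 at Irs2 and 1 each at Pik3r1 and Irs1. The nearest to the limit were an Irs1 site at 52.5 kb, called in 7 DEX and 0 PBS libraries at 56.8 to 94.1 tags, and an Errfi1 site at 53.7 kb, called in 9 DEX and 4 PBS libraries at 153 to 350 tags with DEX. The 6 Ptpn1 sites formed a cluster 70.0 to 99.6 kb upstream. One of them, 86.0 kb upstream (chr2:167844631-167844911), had the highest mean of all 935 complete sites, 1805 ± 321 tags (SD, n = 9 DEX libraries), and was called in all 9 PBS libraries at 126 to 1959 tags. Irs2 sites in this range were called in 1 to 5 DEX libraries and in 0 of 9 PBS libraries.

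Further genes of the pathway were taken from a list of 98 in 5 roles, of which 43 had a site within 50 kb, 79 sites in all, beside the 4845 of 21883 protein-coding genes given above. DEX raised the calling of 21 of the 42 sites tested, at 15 genes, and lowered that of 0, with the background again 55.3%. Without normoxia PBS replicate 1, 31 of the 98 had a site (2320 of all genes), and 22 of 41 sites tested were called more often with DEX, at 16 genes, against 59.1% of all sites. Uncentred tags rose with DEX at 6 of 6 sites tested, with a median change of 1.73 beside 1.72 over all sites, and 0 of 15 sites passed for hypoxia against normoxia with DEX.

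Among ligands and binding proteins 1 of 4 tested sites passed, that of Gdf15, a stress-induced hormone (7 of 9 DEX and 0 PBS libraries, exact test, adjusted p = 0.00859), while the site inside Igfbp4, another growth factor binding protein, was called in 9 DEX and 8 PBS libraries at 300 ± 71.9 and 101 ± 43.7 tags (SD). Receptor genes had 3 of 7 tested sites called more often with DEX, at Egfr, the epidermal growth factor receptor that the Errfi1 product inhibits (9 against 3 libraries, 0.0216), Fgfr4, the liver receptor for fibroblast growth factors (9 against 0, 0.00307), and Ghr, the growth hormone receptor (8 against 1, 0.0112). Adaptors and kinase subunits had 3 of 4, among them a site of Grb2, an adaptor that links receptors to RAS (5 against 0, 0.0452). These counts stand beside 55.3% of all sites tested, and no role was tested against that share.

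Kinases and effectors had 5 of 13 tested sites called more often with DEX. Among these were sites at Sgk1, a kinase related to AKT (8 against 0 libraries, exact test, adjusted p = 0.00438), Eif4ebp1, a translation repressor (9 against 0, 0.00307), Ppp1r3c, a glycogen-targeting phosphatase subunit (9 against 1, 0.00438), and 1 of the 4 tested sites of Foxo3, a transcription factor that AKT inhibits. The strongest Foxo3 site was called in 9 DEX and 8 PBS libraries, at 368 ± 70.3 and 119 ± 54.5 tags. Phosphatases and inhibitors had 9 of 14, at 4 genes: Sesn1 (3 of 3 sites), Socs2 (2 of 2), Ddit4 (2 of 2) and Tsc22d3 (2 of 4). Both counts again stand beside 55.3% of all sites tested, and neither role was tested against that share. Socs2 restrains growth hormone signalling, Ddit4 and Sesn1 restrain the kinase mTOR, and Tsc22d3 encodes the glucocorticoid-induced leucine zipper protein GILZ. With PBS, the lead sites of Socs2, Ddit4 and Sesn1 were called in 0, 1 and 1 of 9 libraries, and that of Tsc22d3 in 5 of 9 with either treatment. Without normoxia PBS replicate 1 the counts by role, in the order given, were 1 of 3, 3 of 7, 3 of 4, 5 of 13 and 10 of 14. The last of these lay at 5 genes, and the share over all sites was 59.1%.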

How the data were processed

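Per the submitters' processing notes, Trimmomatic, BWA 0.7.17, SAMtools 1.10 and HOMER were used with mm10. For HOMER no version was given in these sources. Peaks were called library by library against the matching oxygen condition's input, per the file headers, at 4-fold and a Poisson p of 1e-04 over input and over the local 10000 bp. The deposited signal is the authors' normalized tag count per 10000000 tags. The deposited score, the caller's own unscaled tag score, ranked peaks for the equal-length lists, and the deposited ratio over input served a stricter filter of 8-fold.

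Peaks overlapping by 1 bp were merged, and a site took its highest peak's tags in each library. Genes were 21883 protein-coding spans of GRCm38.p6. Calls were tested with exact stratified or Fisher tests (SciPy 1.17.1) and log2 tags with limma 3.58.1 (R 4.3.3), Benjamini-Hochberg adjusted over all sites at 0.05. Scripts were tested on simulated data. Every site of the 7 genes called in at least 2 libraries was described, and some results for other pathway genes are not reported here. For each lead site the 2 most correlated sites of other genes were named. Members, gene lists and rules were chosen with earlier results of these data known. Inputs (3) entered through the caller only. Same-numbered replicates of the DEX groups correlated at 0.00600 to 0.506 in 9 pairs, and above 0.1 in 7 of them. Numbers were to pair libraries only if every pair lay above 0.1, and the labels name no shared animal. The number was therefore used as a block in an alternative only, and a shared batch behind it was not tested. Depth was as the report gives it. Alternatives covered overlap, threshold, window, gene end, scaling, pseudocount, list length, filters, replicate block and each library left out.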

Additional observations from a re-analysis of the deposited data

How the results depend on the processing

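For calling with DEX against PBS, 3 sites passed in the analysis reported, 6 of 6 tested at a common threshold of 86.6 tags, 10 of 27 with a window of 100 kb, 1 of 1 at equal list length and 1 of 9 with the replicate number as a block, and 3 to 4 when each library was left out. The fourth was the Errfi1 site before the inner start, which passed without 24 h DEX replicate 1 or replicate 2 (adjusted p = 0.0326 and 0.0329). Over all sites tested, 55.3% were called more often with DEX in the analysis reported, which tests the same sites as the 100 kb window. The share was 62.5% at the common threshold and 35.9% with the block, and was not counted at equal list length.

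For tags with DEX against PBS, 5 sites passed in the analysis reported, 13 of 13 with a window of 100 kb, 3 of 3 when libraries without a peak were left out (the weaker Igfbp1 site and the Errfi1 site beyond the gene could not be fitted, having no 24 h PBS value; 97.4% of all sites so fitted rose), and 3 to 5 when each library was left out. The count was 3 without any 1 of the 9 DEX libraries or without 6 h PBS replicate 2 or 3, because those 2 sites then fall under 12 calls. The 100 kb window tests the same 354 sites as the analysis reported, of which 98% rose. At the common threshold, and over sites called in all 18 libraries, none of the 17 was left to test. With libraries centred on their medians, the sign turned at the Igfbp1 sites (-0.073 and -0.53) and the Errfi1 sites (-0.47 and -0.47), where calling minimums stand in for 2, 6, 3 and 6 of the 9 PBS values.

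For hypoxia against normoxia with DEX, 0 sites passed in the analysis reported, 1 of 15 with a window of 100 kb (lower, at Ptpn1) and 1 of 6 with the replicate number as a block (the Pik3r1 site 44.0 kb upstream, 0.42, limma, adjusted p = 0.0385). The window tests the same 935 sites, of which 3.1% were called higher and 2.03% lower. How many of all sites passed for hypoxia with the block was not counted. With the block, the calling of the weaker Igfbp1 site and of the Errfi1 site beyond the gene no longer passed (both 0.0657), and over all sites 35.9% were called more often with DEX in that fit. The block changed no other call. Same-numbered libraries correlated above 0.1 in 28 of 45 pairs over all groups. Calling in hypoxia, with DEX or PBS, and the difference of the DEX change gave 0 in every alternative run. Depth limits the calls: a site under 86.6 tags could be missed in the shallowest library.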
